A study of Homo sapiens with 3 samples.

Results

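Non-collagen matrix genes encode the proteoglycans, elastic fibre proteins and glycoproteins that fill the space around cells beside the collagens. The members described here were 37 such genes, taken by name from the 17185 genes that could be named on the arrays, with older symbols brought up to date, and all 37 were measured. They fall into 6 groups by role: small leucine-rich proteoglycans with dermatopontin, fibronectin with the matricellular glycoproteins, elastic fibre genes, latent TGF-beta binding proteins, matrix proteins of cartilage and mineralised tissue, and basement membrane glycoproteins. The study used MNNG/HOS, an osteosarcoma cell line derived from the HOS line by treatment with a chemical carcinogen, in serum-free DMEM/F12 medium. Cells were first grown for 5 days, the spheres that formed by themselves were taken off, and the adherent cells left behind were cultured again. Untreated adherent cells were kept 5 days without added factor. A second culture received 4 ng/mL of transforming growth factor beta 1 (TGF-beta1) for 3 days, called mesophase by the submitters, with no statement of which fraction was collected. From the last culture, given the same dose for 5 days, the floating spheres alone were collected (iOSCs). All groups therefore share the line, the medium and the removal of the first spheres, and the labels name no genetic change in any of them.

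Each culture was measured on 1 single-colour array, so no replicate, standard error or test exists for any value here, and each difference compares 2 arrays of 1 cell line. A gene's value is the mean log2 intensity over its probe sets, shown as the intensity in arbitrary units. A gene is called higher or lower when 2 arrays differ by at least 2-fold, a rule of size and not a test. An intensity of 685, the median of all gene values, is used as a level filter on a gene's highest array, and an intensity of 63.4 marks the lowest quartile, where the share of background in a value is unknown. Probe sets differ in brightness, so levels of different genes have no order here, a level is read only against the filter and the lowest quartile, and a sum over markers is set only against the same sum on another array. RNA of a culture was measured as a whole, so a change in the share of cells that express a gene and a change in RNA per cell cannot be told apart. In the comparison of day 3 with untreated cells the effects of treatment, of days in culture and possibly of the collected fraction cannot be told apart, nor can those of treatment and fraction for the spheres.

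Medians of the 3 arrays lay between 437 and 455, and Pearson's r over 45033 probe sets lay between 0.977 and 0.979 for the 3 pairs, across probe sets that are not independent replicates. Of the 6 genes listed as immediate TGF-beta targets, 5 passed 2-fold upward at day 3 and 4 in the spheres, with 0 lower in each case. The shares of all genes were 5.77% higher and 5.26% lower at day 3, and 4.90% and 5.00% in the spheres. This list was chosen with earlier results of these data known, so its counts describe the arrays and cannot test the treatment. Of the 8 osteoblast markers 5 passed the level filter, RUNX2, BGLAP, COL1A1, SPP1 and SPARC, while SP7, ALPL and IBSP read at most 76.4. Their 8 intensities summed to 21017 in untreated cells, 40186 at day 3 and 32978.5 in the spheres, with COL1A1 6.14-fold and 4.22-fold higher. BGLAP, SPARC and ALPL were highest in the spheres, and SP7 and IBSP in untreated cells. The sum over the 5 stromal fibroblast markers was also highest at day 3, at 2893, 9629 and 5586, with PDGFRB at 619, 5239.5 and 2769.6. PDPN went the other way and was lowest at day 3, at 135.6, 121.9 and 178.1. The 6 endothelial markers summed to 308, 1154 and 363, where PECAM1 was the 1 marker past the level filter, CDH5, VWF, TEK and TIE1 were at most 126, and KDR was lower, at 55.0, 11.7 and 8.64. The 4 leukocyte markers used summed to 3567, 1224 and 2509, with PTPRC and CD3E in the lowest quartile and CD68 and CD14 lower at day 3 by 3.00-fold and 3.62-fold. The 5 epithelial markers summed to 50379.5, 44717 and 34120. KRT8 read 22690, 17995 and 13910.5, and KRT18 read 26114, 25211 and 18814. EPCAM read 1509, 1435 and 1319.95, KRT19 at most 68.2 and CDH1 at most 10.04. The 5 smooth muscle markers summed to 1429.95, 1519.9 and 1662 but moved apart: ACTA2 was 8.28-fold and 6.96-fold higher, CNN1 3.10-fold and 2.68-fold higher, and TAGLN 4.30-fold and 1.61-fold lower. The part these markers have in the matrix results was not tested.

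The matrix outside cells is not only a scaffold. Fibronectin fibres are laid down first and many other proteins assemble on them. Elastic fibres consist of an elastin core on microfibrils of fibrillin, and the same microfibrils hold TGF-beta in a latent complex through its binding proteins, so the matrix both responds to this growth factor and stores it. Small leucine-rich proteoglycans bind collagen and growth factors. In bone and bone tumours these proteins make up part of the osteoid, the unmineralised matrix.

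Against untreated cells, more of the matrix genes were higher than lower, most plainly at day 3. At day 3, 7 of 37 members (18.9%) were at least 2-fold higher, beside 5.77% of all genes, and 1 (2.70%) was at least 2-fold lower, beside 5.26%. In the spheres 6 (16.2%) were higher, beside 4.90% of all genes, and 4 (10.8%) were lower, beside 5.00%. The median log2 difference over all 37 members was 0.46 at day 3 and 0.23 in the spheres, where the medians over all genes were -0.01 and 0.01. Directly between the treated arrays, 1 member was at least 2-fold higher in the spheres than at day 3, beside 5.78% of all genes, and 4 were lower, beside 4.72%, with a member median of -0.20 and an all-gene median of -0.04. The comparisons with untreated cells share that array, so their values stand side by side and neither repeats the other.

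The level of a gene matters for these shares. Among all genes in the second quartile of mean level, from 65.0 to 679, 23.0% were past 2-fold in either direction at day 3, while in the brightest quartile, above 3115, the share was 1.72%. Of the 8 matrix genes in the brightest quartile, 1 was past 2-fold at day 3 (MFAP2) and 3 were in the spheres (TNC, MFAP2 and EFEMP1), where 2.23% of all genes of that quartile were. Of the 11 members in the second quartile, 2 were past 2-fold at day 3, a share near that of all genes at this level. In the spheres 3 of these 11 were, beside 19.0% of all genes. Of the 10 members in the third quartile, 3 were past 2-fold on each treated array, beside 9.78% and 10.2%. Of the 8 in the lowest quartile of mean level, 2 were at day 3 and 1 in the spheres, beside 9.63% and 8.10%. In all, 21 members passed the level filter and 8 lay in the lowest quartile on all 3 arrays, namely DCN, LUM, FMOD, OGN, ASPN, PRELP, POSTN and MFAP5.

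**Figure D1:**
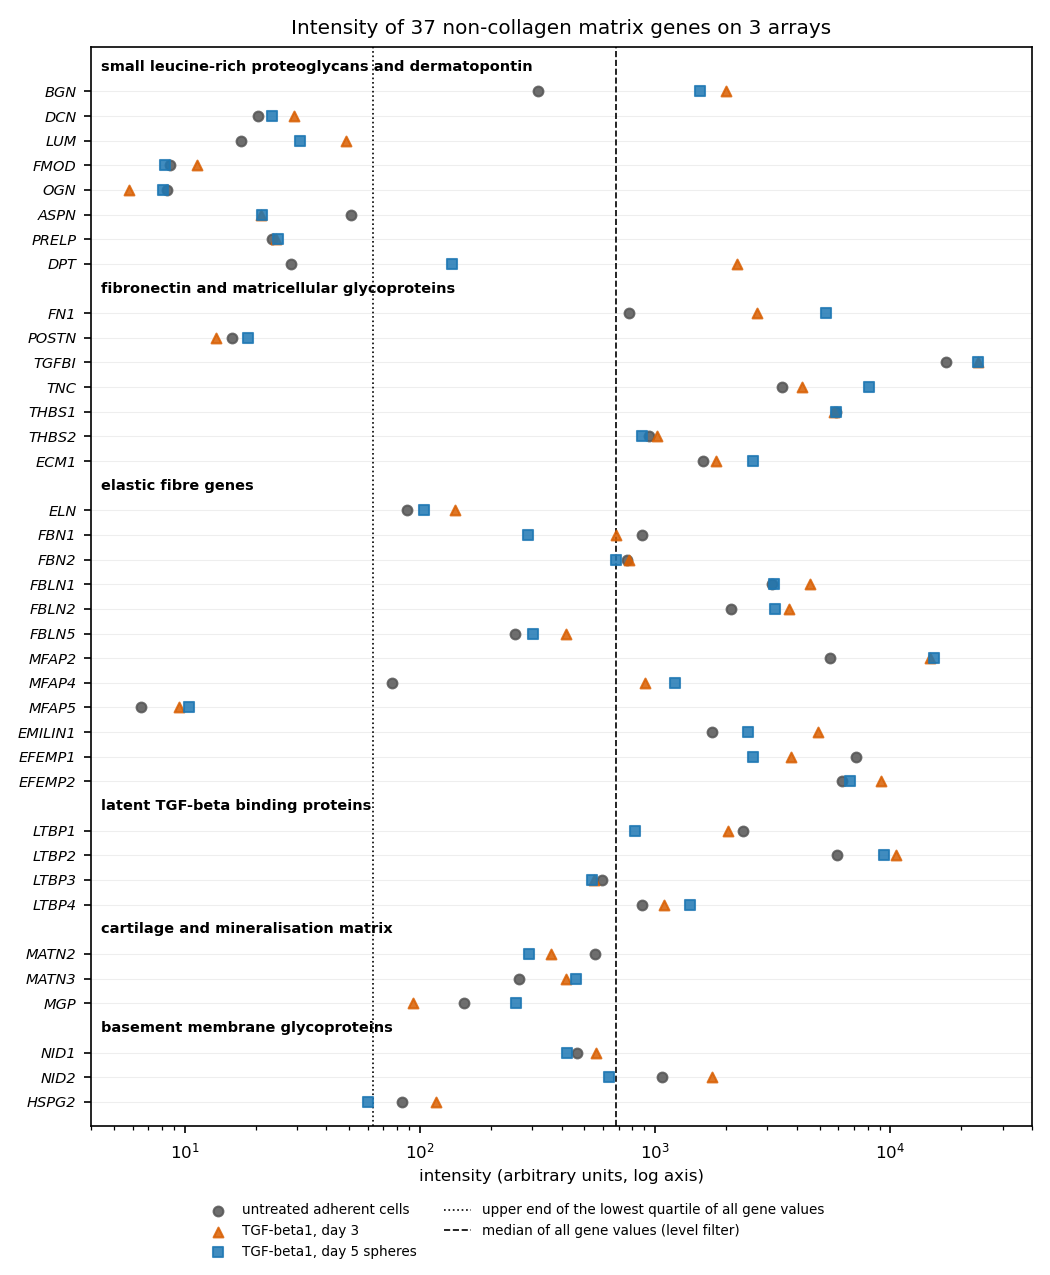
Intensity (log axis, arbitrary units) of each of the 37 genes on the 3 arrays, 1 point per array, grouped by role, with the lowest quartile (63.4) and the level filter (685) as vertical lines. BGN, FN1, MFAP2 and MFAP4 sit to the right on both treated arrays, DPT lies far right at day 3 alone, and FBN1, EFEMP1 and LTBP1 lie furthest left in the spheres.

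**Figure D2:**
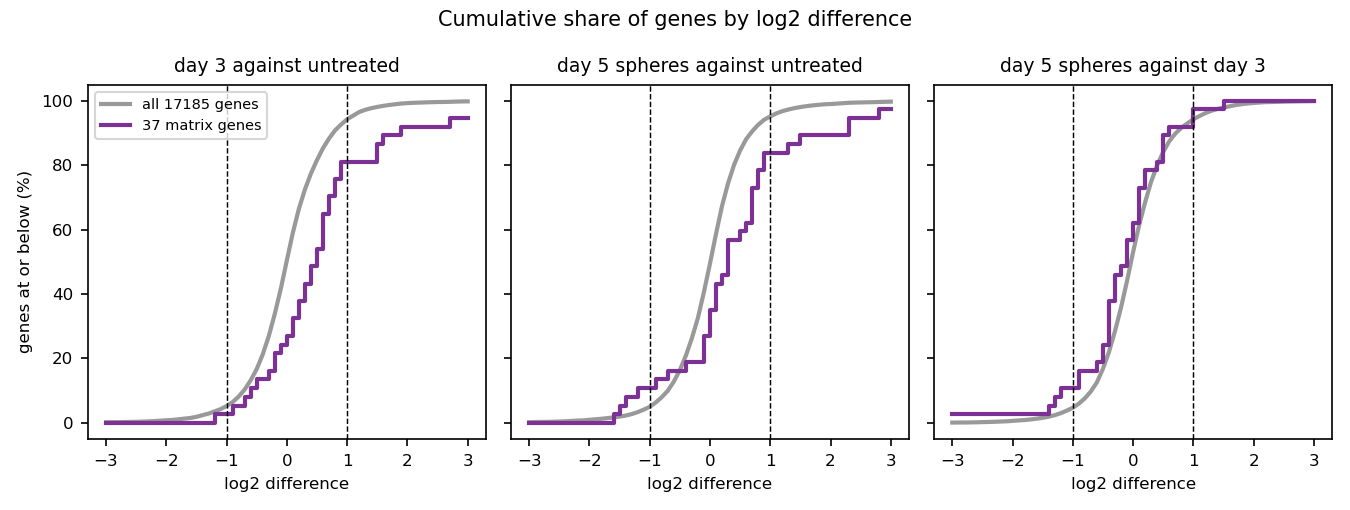
Cumulative percent of genes at or below each log2 difference for the 3 comparisons, with all 17185 genes in grey, the 37 matrix genes in purple and 2-fold as dashed lines. At day 3 the member curve lies to the right, with a median of 0.46. In the spheres it crosses, with 10.8% of members against 5.00% of genes at or below -1 and a median of 0.23, and between the treated arrays it lies left below 0, with 45.9% against 28.5% at or below -0.3.

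The stretches before the gene start are shown for members that pass the level filter and were at least 2-fold higher on both treated arrays (BGN, DPT, FN1 and MFAP2) or lower in the spheres (FBN1 and LTBP1), because these carry the differences described next. The rule also takes MFAP4 and EFEMP1. The sequences are from RefSeq, build GRCh38.p14, where 28 of 37 members matched, and each is the 250 bases before the start on the gene's strand, 5′ to 3′. Capitals mark 3 short motifs found on either strand, which can overlap: CAGAC, the core of a SMAD site, TGANTCA, an AP-1 site, and GGGCGG, an SP1 box. The windows are chrX:153494730-153494979 on the plus strand for BGN, chr1:168729207-168729456 minus for DPT, chr2:215436069-215436318 minus for FN1, chr1:16981584-16981833 minus for MFAP2, chr15:48644971-48645220 minus for FBN1 and chr2:32946703-32946952 plus for LTBP1.
BGN: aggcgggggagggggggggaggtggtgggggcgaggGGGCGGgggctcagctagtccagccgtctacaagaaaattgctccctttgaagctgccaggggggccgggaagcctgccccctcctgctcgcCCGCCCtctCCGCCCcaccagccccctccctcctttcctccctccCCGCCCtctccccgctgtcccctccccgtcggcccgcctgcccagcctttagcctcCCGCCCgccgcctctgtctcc
DPT: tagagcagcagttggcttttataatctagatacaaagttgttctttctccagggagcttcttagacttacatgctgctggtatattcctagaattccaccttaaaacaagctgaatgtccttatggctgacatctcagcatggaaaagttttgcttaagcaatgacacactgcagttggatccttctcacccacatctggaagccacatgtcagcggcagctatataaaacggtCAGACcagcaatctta
FN1: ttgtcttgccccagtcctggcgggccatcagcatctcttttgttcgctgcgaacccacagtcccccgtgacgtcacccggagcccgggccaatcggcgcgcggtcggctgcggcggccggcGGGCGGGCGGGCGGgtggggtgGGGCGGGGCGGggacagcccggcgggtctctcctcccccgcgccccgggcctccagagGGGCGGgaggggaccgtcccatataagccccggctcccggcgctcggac
MFAP2: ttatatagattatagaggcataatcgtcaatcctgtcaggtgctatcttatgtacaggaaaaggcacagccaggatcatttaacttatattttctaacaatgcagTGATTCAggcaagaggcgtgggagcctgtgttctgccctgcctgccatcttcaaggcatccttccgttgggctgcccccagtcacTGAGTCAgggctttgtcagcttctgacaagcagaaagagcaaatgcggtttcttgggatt
FBN1: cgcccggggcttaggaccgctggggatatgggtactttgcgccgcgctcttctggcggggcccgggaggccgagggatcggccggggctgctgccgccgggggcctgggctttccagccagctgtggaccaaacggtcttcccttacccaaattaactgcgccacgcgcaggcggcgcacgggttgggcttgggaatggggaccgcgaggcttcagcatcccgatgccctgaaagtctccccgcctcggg
LTBP1: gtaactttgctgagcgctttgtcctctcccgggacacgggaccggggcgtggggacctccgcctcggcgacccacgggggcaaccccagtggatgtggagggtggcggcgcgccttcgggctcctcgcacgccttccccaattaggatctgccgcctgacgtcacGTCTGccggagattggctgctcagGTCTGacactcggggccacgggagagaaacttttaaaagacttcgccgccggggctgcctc
Among all 35116 promoter windows of this length, 38.0% hold CAGAC, 6.57% TGANTCA and 42.6% GGGCGG. The members' windows held them in 16, 3 and 19 of 28 cases (57.1%, 10.7% and 67.9%). Each member enters with its first listed window alone, also where it is printed here, while the shares over all windows count every window. The shares are therefore not drawn alike, and their difference was not tested. The MFAP2 window held 2 AP-1 motifs, the DPT window 1 CAGAC close to the start and the LTBP1 window 2. BGN and FN1 held 5 and 6 SP1 boxes in windows of 74.0% and 76.4% G and C, and FBN1 held none of the 3 motifs. A match is a run of letters and does not show that a factor binds there.

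Among the small leucine-rich proteoglycans and dermatopontin, BGN passed the level filter on both treated arrays and DPT at day 3 alone, and the other 6 lay in the lowest quartile on every array. BGN, which encodes biglycan, a proteoglycan of bone matrix that carries chondroitin or dermatan sulphate chains, read 317 on the untreated array, 2008 at day 3 and 1548 for the spheres. It was 6.33-fold higher at day 3 and 4.88-fold higher in the spheres, and the treated arrays differed from each other by 1.30-fold. DPT, which encodes dermatopontin, a small protein that binds decorin and TGF-beta and assists collagen fibre assembly, read 28.2, 2233 and 136 in the same order. DPT was thus 79.1-fold higher at day 3 and 4.83-fold higher in the spheres, and it was 16.4-fold lower in the spheres than at day 3, the widest gap of any member between the treated arrays. Its untreated value lay in the lowest quartile, and it passed the level filter through day 3 alone. With 64 added to each intensity its log2 differences were 4.64 at day 3 instead of 6.31, and 1.12 in the spheres instead of 2.27.

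DCN, the gene of decorin, the closest relative of biglycan, was dim on every array, at 20.5, 29.1 and 23.6, and each of its 4 probe sets stayed under 33. LUM, which encodes the corneal and skin proteoglycan lumican, read 17.4, 48.5 and 31.0. ASPN, the gene of asporin, a proteoglycan that binds TGF-beta, read 50.9, 21.1 and 21.3. LUM passed the 2-fold rule upward at day 3 (2.80-fold) and ASPN downward on both treated arrays (2.41-fold and 2.39-fold), but all these values lay in the lowest quartile, and with 64 added to each intensity neither reached 2-fold. FMOD, OGN and PRELP, which encode fibromodulin, osteoglycin and prolargin, stayed between 5.8 and 25.02 on all arrays. Of this group of 8, 3 (37.5%) were at least 2-fold higher and 1 (12.5%) lower at day 3. In the spheres 2 (25%) were higher and 1 (12.5%) lower. Beside these counts stand 5.77% and 5.26% of all genes at day 3, and 4.90% and 5.00% in the spheres.

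In the group of fibronectin and matricellular glycoproteins, FN1 and TNC were higher in the spheres, and the thrombospondins stayed near their untreated level. FN1, the fibronectin gene, had intensities of 771, 2719 and 5322. It was 3.52-fold higher at day 3, 6.90-fold higher in the spheres and 1.96-fold higher in the spheres than at day 3, so the order was untreated, day 3, spheres. Its 2 probe sets kept that order but differed in size. The probe set of NM_002026 read 5657, 17119 and 22485, and that of NM_054034, another transcript record of the gene, read 105, 432 and 1259.7. Their log2 differences in the spheres were 1.99 and 3.58, the widest gap between probe sets of any member. TNC encodes tenascin-C, a glycoprotein that weakens the hold of cells on fibronectin, and read 3478, 4218 and 8116. It was 1.21-fold higher at day 3 and 2.33-fold higher in the spheres.

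ECM1, the gene of extracellular matrix protein 1, read 1596, 1809.6 and 2596, up to 1.63-fold above untreated. Its 2 probe sets had log2 differences of 0.52 and -0.16 at day 3 and of 0.74 and 0.67 in the spheres, so the direction at day 3 depended on the probe set. TGFBI, named for its induction by TGF-beta, encodes an adhesion protein that binds integrins. It read 17159 in untreated cells, 23595 at day 3 and 23468 in the spheres, which is 1.38-fold and 1.37-fold higher and short of the rule. THBS1, which encodes thrombospondin 1, an activator of latent TGF-beta, read 5882, 5733 and 5899.7, and its relative THBS2 read 941, 1022 and 882.5. Neither differed by more than 1.16-fold between any pair of arrays. POSTN, the gene of periostin, a TGF-beta-induced protein of bone surfaces, stayed at 15.8, 13.6 and 18.6. Of the 7 genes in this group 1 (14.3%) was at least 2-fold higher at day 3 and 2 (28.6%) in the spheres, with 0 lower on either array. The shares of all genes were 5.77% higher and 5.26% lower at day 3, and 4.90% and 5.00% in the spheres.

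The elastic fibre genes went in both directions, with MFAP2 and MFAP4 higher and FBN1 and EFEMP1 lower. MFAP4 encodes a glycoprotein that binds elastin and fibrillin, and read 76.0, 903 and 1209.6. It was 11.9-fold higher at day 3 and 15.9-fold higher in the spheres, starting just above the lowest quartile, and adding 64 to every intensity lowered its log2 differences from 3.57 and 3.99 to 2.79 and 3.19. MFAP2, which encodes a small protein of microfibrils also known as MAGP1, read 5526, 14789.5 and 15299. It was 2.68-fold and 2.77-fold higher, and both of its probe sets gave log2 differences between 1.41 and 1.51. MFAP5, the gene of its relative MAGP2, stayed between 6.5 and 10.4. EMILIN1 encodes a glycoprotein between the elastin core and the microfibrils, which in mice restrains the processing of the TGF-beta precursor. It read 1738, 4941 and 2476, 2.84-fold higher at day 3 and 1.42-fold higher in the spheres. The difference between the treated arrays lay at a log2 difference of -0.997, just short of 2-fold, and it passed the rule with arrays centred on their medians (-1.02).

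FBN1, which encodes fibrillin 1, the main microfibril protein after birth, read 882, then 679.6 at day 3 and 287.5 in the spheres. It was 1.30-fold lower at day 3 and 3.07-fold lower in the spheres, and 2.36-fold lower in the spheres than at day 3. FBN2, the gene of fibrillin 2, which is made mainly in development, read 756, 777 and 679. EFEMP1, the gene of fibulin 3, read 7148, 3781 and 2596, 1.89-fold lower at day 3 and 2.75-fold lower in the spheres. Its relative EFEMP2, the gene of fibulin 4, which brings lysyl oxidase to elastin, read 6255, 9111 and 6743. In each of these pairs of relatives 1 gene was past 2-fold lower in the spheres, while the other was there within 1.11-fold of untreated.

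ELN, the elastin gene itself, was dim, at 88.5, 141 and 104. FBLN1 encodes a fibulin of elastic fibres and basement membranes and read 3141, 4547 and 3205, and its 4 probe sets gave log2 differences at day 3 between 0.42 and 0.66. FBLN2 read 2107, 3706 and 3232. FBLN5, whose product is needed for elastic fibre assembly in mice, read 253, 417 and 302. These genes were highest at day 3 and differed from untreated by at most 1.76-fold. Of the 12 elastic fibre genes, 3 (25%) were at least 2-fold higher and 0 lower at day 3. In the spheres 2 (16.7%) were higher and 2 (16.7%) lower. Beside these counts stand 5.77% and 5.26% of all genes at day 3, and 4.90% and 5.00% in the spheres.

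The latent TGF-beta binding proteins tether the latent growth factor to microfibrils and, apart from LTBP2, which does not bind it, form the large latent complex with it. LTBP1 read 2366 in untreated cells, 2042 at day 3 and 823 in the spheres, 2.87-fold lower than untreated in the spheres and 2.48-fold lower than at day 3. LTBP2 read 5918, 10579 and 9372, 1.79-fold and 1.58-fold higher. LTBP4 read 882, 1087 and 1411, the highest level being 1.60-fold above untreated, and LTBP3 stayed at 597, 552 and 539. LTBP1 was the 1 member of the 4 (25%) past 2-fold against untreated cells, lower in the spheres, where 5.00% of all genes were lower. LTBP3 also lay below untreated, with log2 differences of -0.11 and -0.15, and LTBP2 and LTBP4 differed in the other direction.

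Among the 3 genes of cartilage and mineralised matrix, none passed 2-fold against untreated cells. MGP, which encodes matrix Gla protein, an inhibitor of mineralisation, read 154, 93.2 and 255. It was 1.65-fold lower at day 3 and 1.65-fold higher in the spheres, which leaves it 2.74-fold higher in the spheres than at day 3, the 1 member past 2-fold in that direction. It did not pass the level filter. MATN3, a cartilage matrilin gene, read 264, 417 and 461, and MATN2, the gene of a matrilin of many tissues, read 554, 359.8 and 292. The 2 probe sets of MATN2 had log2 differences of -0.83 and -1.02 in the spheres.

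The 3 basement membrane genes lay above untreated at day 3 and below it in the spheres, by less than 2-fold in each case. NID2 alone of them passed the level filter. NID2, the gene of nidogen 2, which links laminin and collagen networks, read 1072, 1745 and 637. It was 1.63-fold higher at day 3, 1.68-fold lower in the spheres and 2.74-fold lower in the spheres than at day 3. NID1, the gene of nidogen 1, read 464, 559 and 422, which is 1.10-fold lower in the spheres. HSPG2, which encodes perlecan, a heparan sulphate proteoglycan, read 83.6, 117 and 59.9, the last of these in the lowest quartile. The genes past 2-fold lower in the spheres than at day 3 were DPT, FBN1, LTBP1 and NID2, which belong to 4 different groups.

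**Figure D3:**
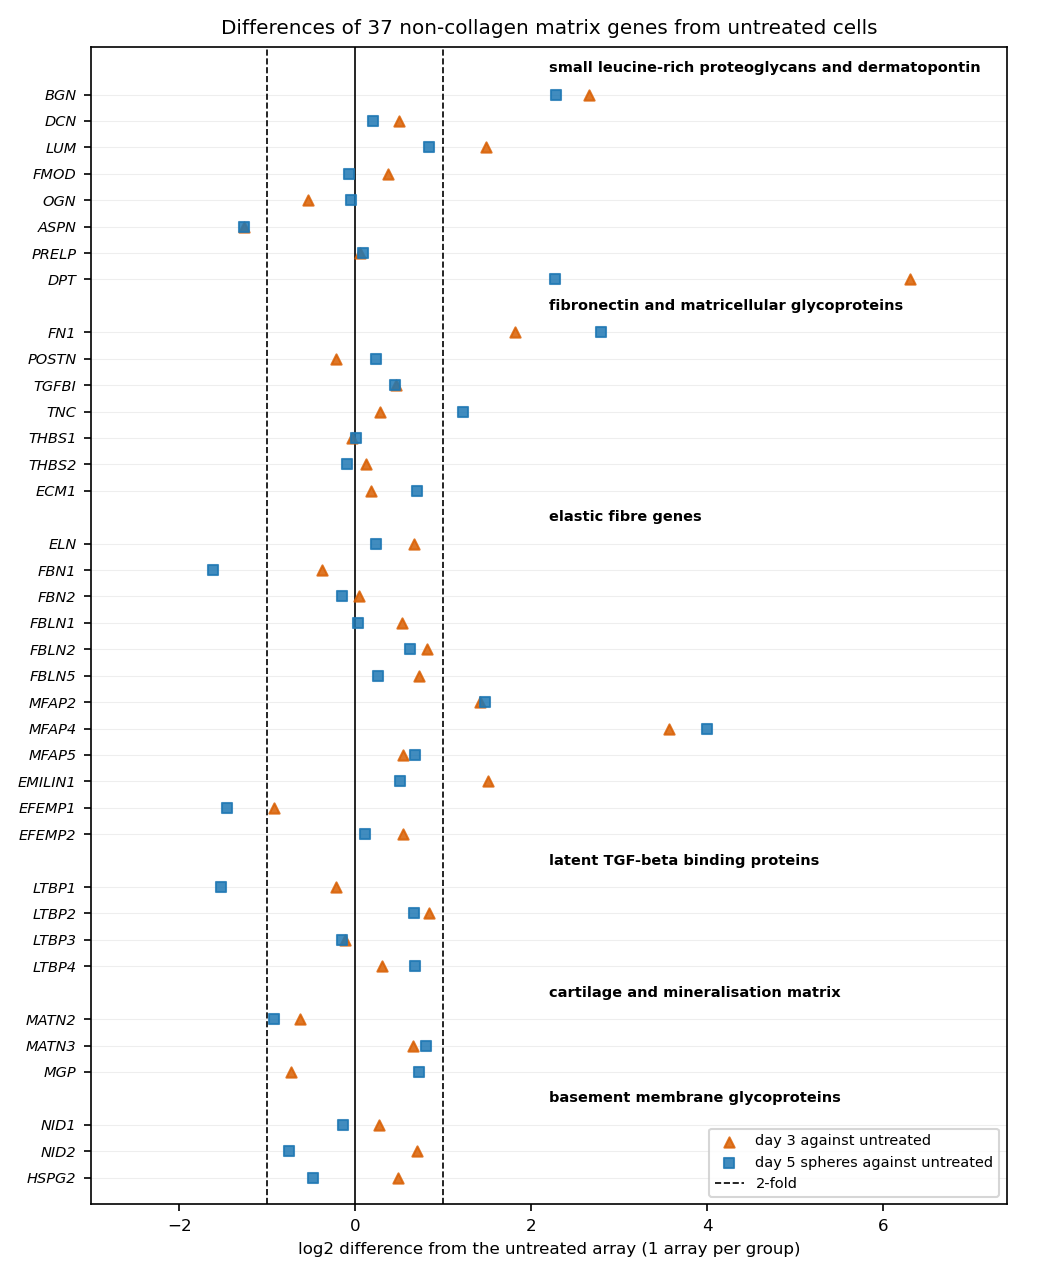
Log2 difference of each of the 37 genes from the untreated array at day 3 (triangles) and in the spheres (squares), grouped by role, with 2-fold as dashed lines and 1 array per group. DPT stands at 6.31 at day 3 and 2.27 in the spheres, MFAP4 at 3.57 and 3.99, and FBN1, EFEMP1 and LTBP1 pass -1 in the spheres alone.

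Probe sets of the same gene are the nearest thing to an error that these arrays hold, though they share the RNA and the hybridisation and may read different transcripts. Over the 771 genes with several probe sets that passed the level filter, the median range of the log2 difference among a gene's probe sets was 0.17 at day 3 and 0.17 in the spheres, and the 90th percentiles were 0.67 and 0.72. Over genes that did not pass the filter the medians were 0.39 and 0.36. For the 6 members with several probe sets the range lay between 0.01 and 0.68 at day 3 and between 0.07 and 1.59 in the spheres, with ECM1 and FN1 at the upper ends. All probe sets of a gene had the same sign in 5 of 6 members at day 3 and in 4 of 6 in the spheres, where DCN and FBLN1 were mixed around 0. The other 31 members rest on 1 probe set each.

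**Figure D4:**
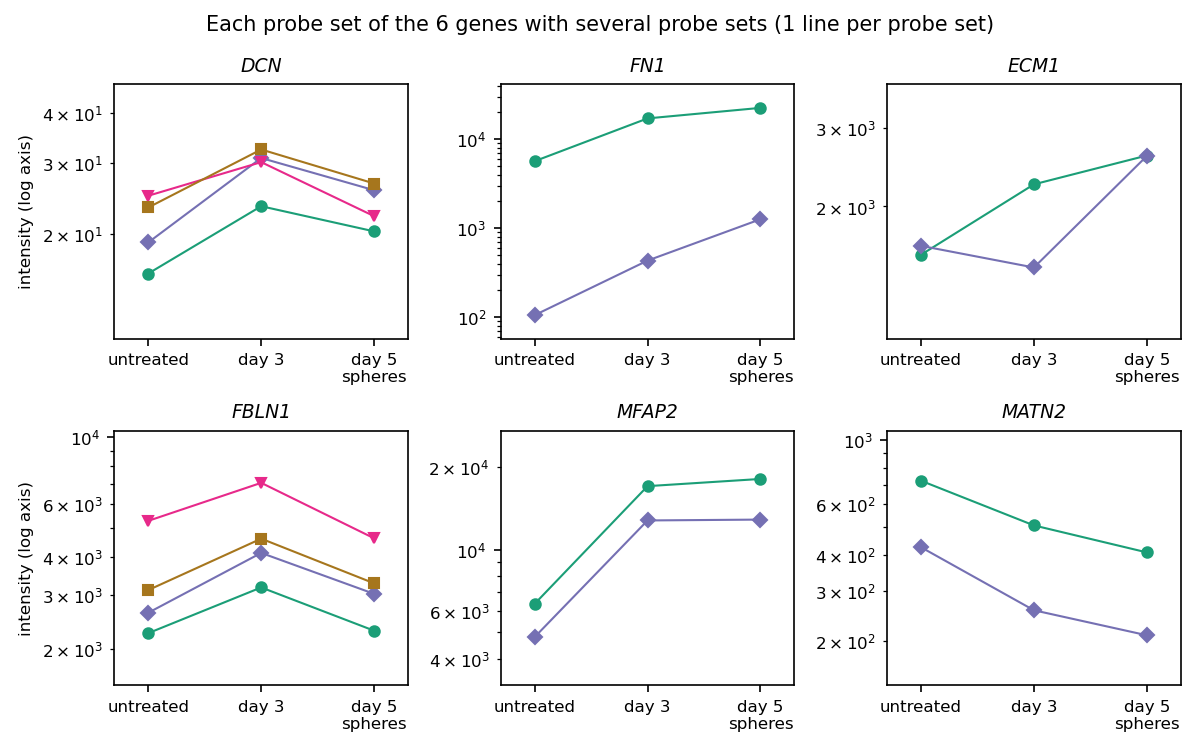
Intensity (log axis) of every probe set of DCN, FN1, ECM1, FBLN1, MFAP2 and MATN2 on the 3 arrays, 1 line per probe set. The lines of MFAP2, MATN2 and FBLN1 run nearly parallel, those of FN1 climb from 5657 to 22485 and from 105 to 1259.7, and those of ECM1 part at day 3.

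Genes that build, modify or bind these proteins were read from 7 further lists. Lysyl oxidases cross-link elastin and collagen, and none of the 5 was higher in the spheres than in untreated cells. LOXL1, which acts on elastin, read 4702.5, 5195 and 1902, a log2 difference of -1.31 in the spheres, and LOXL3 read 2617, 1468 and 996, a difference of -1.39. LOX read 1418, 541 and 1304, a difference of -1.39 at day 3 and -0.12 in the spheres. LOXL2 read 8403, 6186 and 5767. In the spheres 3 of 5 oxidase genes (60%) were at least 2-fold lower and 0 higher, and at day 3 it was 1 (20%) in each direction. Of all genes 5.00% were lower and 4.90% higher in the spheres, and 5.26% and 5.77% at day 3. LOXL4, named here after its values were seen and not past the level filter, was the one higher at day 3 and the third one lower in the spheres, at 140, 420.4 and 64.9.

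Other proteoglycan core protein genes, listed together with link protein genes, were as often higher as lower at day 3. Of 24 measured, 4 (16.7%) were at least 2-fold higher and 4 (16.7%) lower at day 3. In the spheres 5 (20.8%) were higher and 1 (4.17%) lower. The shares of all genes were 5.77% and 5.26% at day 3, and 4.90% and 5.00% in the spheres. CSPG4, also called NG2, a membrane proteoglycan gene, read 967, 7352 and 1965, log2 differences of 2.93 and 1.02. VCAN, the gene of the large hyaluronan-binding proteoglycan versican, differed by 1.25 and 1.75, and SPOCK1, which encodes testican 1, by 1.38 at day 3 and 2.84-fold in the spheres. GPC6, a glypican gene, differed by 0.13 and 1.21. The 4 that were lower at day 3, HAPLN1, GPC4, SRGN and OMD, did not pass the level filter, nor did GPC2, the remaining gene higher on both treated arrays. HAPLN1, which encodes a link protein and not a core protein, was the 1 gene lower in the spheres. These 5 are named after their values were seen.

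Of 32 other matrix glycoprotein genes 7 (21.9%) were at least 2-fold higher and 1 (3.125%) lower at day 3. In the spheres 4 (12.5%) were higher and 2 (6.25%) lower. The shares of all genes were 5.77% and 5.26% at day 3, and 4.90% and 5.00% in the spheres. SMOC1, a calcium-binding matrix protein gene, read 154, 900.1 and 155, so it stood out at day 3 alone. HMCN1, the gene of hemicentin 1, a fibulin family member, read 483, 1331 and 1479. CTHRC1 differed by 1.05 and 0.89, and AGRN, the gene of the heparan sulphate proteoglycan agrin, by 0.51 and -1.13. The others past 2-fold in the spheres, THBS4, MMRN1 and CCN5 upward and FRAS1 downward, were seen to be below the level filter, and FRAS1 was also the 1 gene lower at day 3.

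Glycosaminoglycan chains are added to BGN, DCN and similar core proteins by a shared set of enzymes. Of 28 genes, 3 (10.7%) were at least 2-fold higher and 0 lower at day 3, and 2 (7.14%) were higher and 3 (10.7%) lower in the spheres. The shares of all genes were 5.77% and 5.26% at day 3, and 4.90% and 5.00% in the spheres. DSE, whose enzyme turns chondroitin into dermatan sulphate, read 2237, 7528 and 8662, log2 differences of 1.75 and 1.95. CHST14, whose enzyme sulphates dermatan, read 2958, 2091 and 1047, a log2 difference of -0.50 at day 3 and 2.83-fold lower in the spheres. CHPF2 and CHST12, both of chondroitin synthesis, differed by -1.31 and -0.99 in the spheres. CSGALNACT1 and HS6ST1, higher at day 3, CSGALNACT1 also in the spheres, and HS6ST2, lower in the spheres, complete these counts and did not pass the level filter.

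Of 12 genes of latent TGF-beta and its activation, 4 (33.3%) were at least 2-fold higher and 1 (8.33%) lower at day 3. In the spheres 1 (8.33%) was higher and 2 (16.7%) lower. The shares of all genes were 5.77% and 5.26% at day 3, and 4.90% and 5.00% in the spheres. TGFB1, whose product the binding proteins hold, read 5454, 11309.6 and 9074, and FURIN, the protease that cuts its precursor, read 775, 2176 and 1362. ITGAV differed by 0.47 and 0.40, and MMP14 by 0.60 and 0.70. The rest of these counts are genes that did not pass the filter, with ITGB8 higher at day 3, LRRC32 higher on both treated arrays, TGFB2 lower on both and NRROS lower in the spheres. Of 11 measured receptors of fibronectin and thrombospondin, 1 (9.09%) was at least 2-fold higher and 0 lower on each treated array against untreated. These counts stand beside the same shares of all genes. LRP1, a clearance receptor gene, differed by 1.24 at day 3 and 0.02 in the spheres, ITGA5, which encodes the fibronectin receptor's alpha chain, by -0.20 and 0.60, and SDC4 by -0.22 and -0.47. LRP1 was the one past 2-fold at day 3, and ITGB3, at 58.1, 85.6 and 117 and not past the level filter, the one in the spheres. Of 16 measured processing enzymes, 2 (12.5%) were higher and 1 (6.25%) lower in each comparison with untreated, again beside those shares of all genes. BMP1, which cleaves the biglycan precursor and procollagen, differed by 1.18 and 1.11. ADAMTS6 differed by -1.84 and 0.70, PAPSS2, which makes the sulphate donor, by -0.76 and -1.21, and HTRA1, a secreted protease that cuts fibronectin and biglycan, by 5.31 and 4.88.

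**Figure D5:**
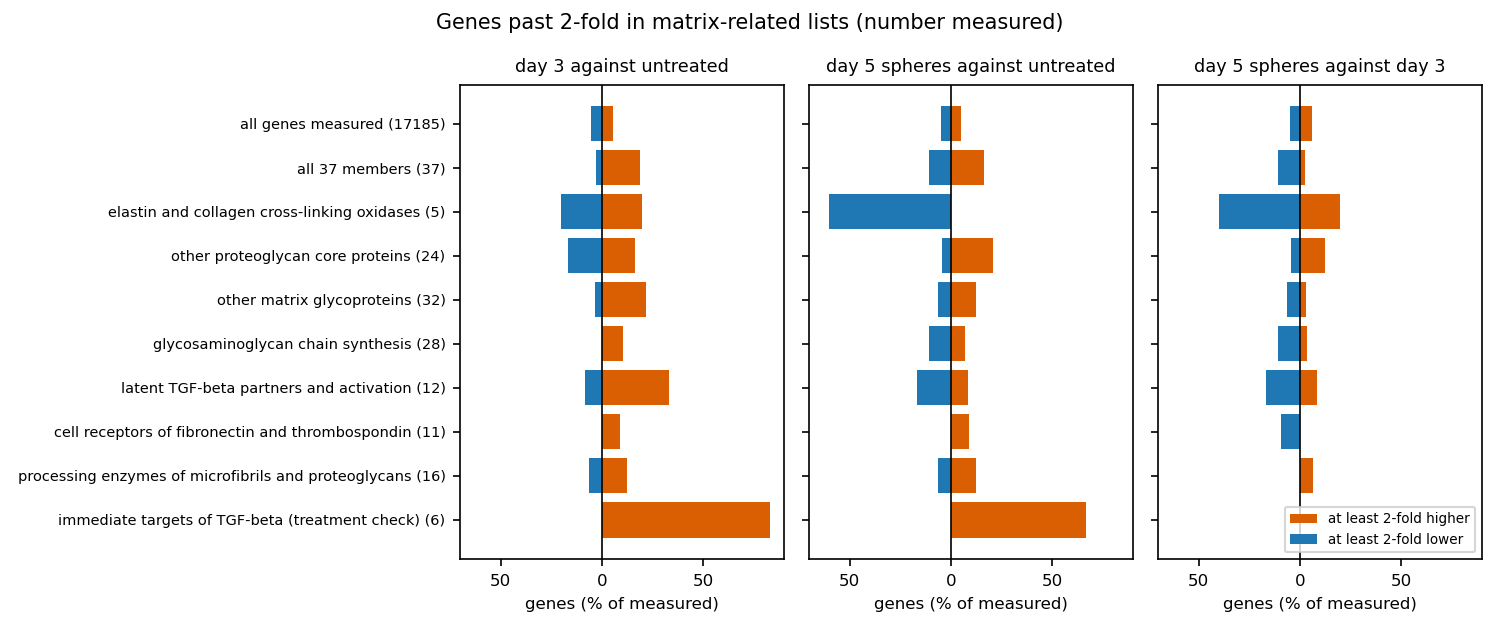
Percent of the measured genes of each list at least 2-fold higher (right) or lower (left) in the 3 comparisons, with the number measured in brackets and 1 array per group. All genes measured stay between 4.72% and 5.78% in each direction, the 37 members reach 18.9% higher at day 3, and lysyl oxidases lean to lower in the spheres.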

How the data were processed

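Total RNA of 3 cultures was labelled with Cy3 and hybridised to 1 array each, per the labels' protocols. The authors deposited 1 linear intensity per probe set, and the submitters' processing notes name RMA, for 45033 probe sets, from 2.37 to 51530. RMA subtracts background, makes the arrays' distributions alike and summarises probes, so a difference shared by most genes would be hidden. The step to linear values is not given in the sources used here, nor is the annotation build. Detection calls were not used.

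Log2 was taken with no offset. Of the probe sets, 18188 were named by the platform's gene table, updated through gene identifiers, and 678 by transcript accession in a RefSeq table of GRCh38.p14, while 26167 stayed unnamed and unused. Probe sets were averaged per gene, giving 17185 genes, of which 9285 passed the level filter. All 37 members are reported. Up to 4 genes of each further list past the level filter, with the largest differences from untreated, were named by rule. The genes of these lists below the filter that are named with the counts past 2-fold were added after their values were seen. No test was made, since each group has 1 array. The members, lists and thresholds were chosen with earlier results of these data known. Other settings tried were the brightest or median probe set, array centring, quantile normalization, 64 added to each intensity, platform names alone, members past the level filter alone, and thresholds of 1.5-fold and 3-fold. Scripts ran in Python 3.11.15 with numpy 2.4.6 and pandas 2.3.3 and were tested on simulated data. One marker gene of another cell type is not reported here.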

Additional observations from a re-analysis of the deposited data

Results flagged for a closer look

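MGP and NID2 differed from untreated cells in opposite directions on the treated arrays, by at least 1.5-fold each way. The log2 difference of MGP was -0.73 at day 3 and 0.73 in the spheres. That of NID2 was 0.70 at day 3 and -0.75 in the spheres. The opposition was not tested, since each group is 1 array, and the days of treatment and possibly the fraction collected differ between the treated arrays as well.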

How the results depend on the processing

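With 37 members, 3 comparisons and 6 other settings, 661 of 666 member values kept their side of the 2-fold rule and none that passed it changed sign. With 64 added to each intensity, LUM at day 3 (0.47) and ASPN at day 3 and in the spheres (-0.43 and -0.43) no longer passed. EMILIN1 passed between the treated arrays with centred arrays (-1.02) and quantile normalization (-1.00384). With 64 added, 0 members were lower at day 3 and the member medians were 0.27 at day 3 and 0.0775 in the spheres. The filter reads the highest array, so BGN, DPT and MFAP4 are among the 21 members past it through the treated arrays alone. FBN1 passed it through the untreated array alone. This set of 21 members therefore depends on the values that are compared. In it 0 were lower at day 3 (3.44% of genes past the filter), 0 were higher in the spheres than at day 3 (4.57%), and the sphere median was 0.51. At 1.5-fold, 13 members were higher and 4 lower at day 3 (15.3% and 13.7% of all genes), 14 and 6 in the spheres (12.3% and 13.4%), and 3 and 7 between the treated arrays (13.1% and 13.2%). At 3-fold, 4 were higher and 0 lower at day 3 (1.67% and 1.59% of all genes), 4 and 1 in the spheres (1.76% and 1.75%), and 0 and 1 between the treated arrays (1.82% and 1.37%). Centring shifts every gene of a comparison by the same amount. Between the treated arrays it moved the all-gene median from -0.035 to -0.0589 and EMILIN1 from -0.997 to -1.02. The cause of the EMILIN1 move under quantile normalization was not tested. The other moves came with the filtered set, which depends on the values compared, with another threshold or with 64 added, which compresses low values. The share of background in low values is unknown and limits them. No paired analysis was possible because each group has 1 array.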
